A study of Ictidomys tridecemlineatus with 5 samples.

Results

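The Rab GTPases of the thirteen-lined ground squirrel, Ictidomys tridecemlineatus, were examined in RNA sequencing of the eye and of the retina. Their transcripts were found by protein similarity: every assembled transcript whose best Swiss-Prot hit is described as a Ras-related protein Rab was taken, and the hits were joined by the Swiss-Prot entry name without its species code. This gave 57 Rab entries among 15938 entries of any kind, with 112 Rab transcripts in the eye table and 112 in the retina table. Of the 57, 54 were in both tables, and 55 had a symbol in the RefSeq gene table of this species. Names are given by gene symbol, and each entry stands for the transcripts that matched it best.

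All animals were wild type and no treatment is named. The eye group has 2 libraries and the retina group has 3, and the RNA of 4 animals was combined for every library, per the labels. Neither age nor sex of the animals is given in the labels. The tables hold 1 value per transcript for each tissue, so the differences reported here could not be set against the spread between replicates, and they carry no p-value.

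Rab proteins are the largest family of small GTPases that direct membrane traffic. Each switches between a GDP-bound form kept soluble by GDP dissociation inhibitors and a GTP-bound form that sits on one kind of membrane and recruits effectors there. Guanine nucleotide exchange factors turn them on, GTPase-activating proteins turn them off, and a prenyl tail added with the help of Rab escort proteins holds them in the membrane. In the eye they are known for synaptic vesicle release in photoreceptors and other neurons, for the transport of rhodopsin towards the outer segment and for the movement of melanosomes in pigment cells. Loss of the escort protein CHM causes choroideremia, a degeneration of the retina, pigment epithelium and choroid.

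The level of an entry is the RPKM (reads scaled to transcript length and to the read total) of its highest transcript. The difference is the log2 of the eye level plus 1 less the log2 of the retina level plus 1, which understates the change of entries with low levels. Entries present in both tissues were compared where the higher of the values was at least 1 RPKM, and a 2-fold difference on that scale was called. The read total behind the scaling was 264219334 in eye and 355988270 in retina, per tissue and not per library. Behind the highest transcript of a Rab entry stood a median of 7063 reads in eye and 9142 in retina. The 95% counting interval of the difference had a median half-width of 0.043 over the Rab entries compared, with a range of 0.015 to 0.10. Intervals cover counting error only and leave out the spread between animals, libraries and assemblies.

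Markers of other tissues set the frame of the comparison. All 4 retinal markers (ARR3, RCVRN, SNAP25 and PDE6H) were higher in retina, with a summed level of 4127 RPKM in eye against 7809 in retina. All 4 pigment cell markers (TYRP1, PMEL, MLANA and RPE65) were higher in eye and summed to 489 RPKM there against 27.1 in retina. The 3 lens crystallins CRYAA, CRYBB2 and CRYAB summed to 6458 against 25.3, and the 3 surface epithelium keratins KRT12, KRT15 and KRT5 to 3952 against 1.96. Of the muscle markers, MYLPF was at 366 against 1.37 and TNNI2 at 220 against 1.01, while ACTA1 was at 952 against 601, in both tissues from short transcripts (131 and 135 bases). Levels of other markers also came from transcripts under 200 bases. In eye these were KRT15 (103 bases), ARR3 (139), CRYAA (147), RCVRN (174) and SNAP25 (191), and in retina PDE6H (151). The 3 connective tissue markers DCN, FMOD and BGN summed to 527 against 12.7. No marker was at 0 in either table. In bulk RNA of this kind, fewer cells of a type and less RNA per cell cannot be told apart, and the part that the makeup of the tissue has in any Rab difference was not tested.

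Rab transcripts were of middling to high abundance in both tissues. The median Rab level was 15.8 RPKM in eye against 12.6 in retina, where the median over all entries was 8.01 and 7.92. In eye 38 entries reached 10 RPKM and 10 reached 50 RPKM, and in retina 31 and 9 did. Entries are ranked here by the RPKM of the highest transcript, and the order depends on that choice. In eye RAB1A was highest at 105 RPKM, followed by RAB11B at 84.0, RAB3A at 77.6, RAB7A at 69.1 and RAB5B at 68.9. In retina RAB3A was highest at 172 RPKM, at percentile 97.3 of all retina entries, followed by RAB1A at 71.8, RAB1B at 63.6, RAB11B at 62.1 and RAB5B at 61.8. The leading entries of the retina after RAB3A lay close together, whereas RAB3A stood 2.40 times above the next. Longer or spanning transcripts of some of these entries were lower. In eye RAB1A was at 69.2 RPKM over 2542 bases and RAB11B at 50.2 over 3410, each under the RAB3A value. On transcripts that span the protein, RAB7A in eye was at 63.2 RPKM and RAB1B in retina at 53.9. The lowest entries compared were RAB39A in eye at 0.990 RPKM and RAB20 in retina at 0.534.

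**Figure D1:**
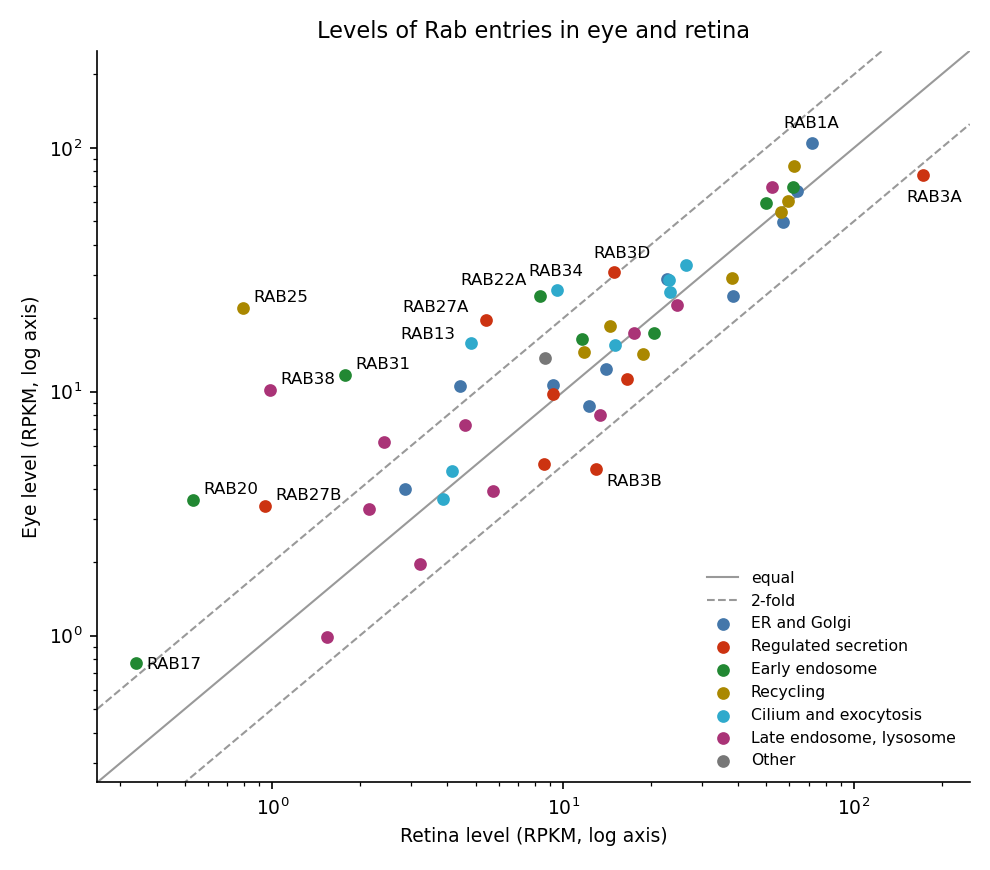
Level of each Rab entry found in both tables, retina on the horizontal and eye on the vertical axis (RPKM, both log axes), coloured by role, with lines for equal levels and for 2-fold ratios. RAB25, RAB38, RAB31 and RAB20 lie far above the upper line with retina levels under 2 RPKM, and RAB3A at 77.6 in eye and 172 in retina lies below the lower line.

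Of the 53 Rab entries compared, 34 were higher in eye and 19 in retina, a split that turned to 22 and 31 when both tables were scaled to an equal total. At least 2-fold higher in eye were 11 entries, or 20.8%, where 11.8% of all 13383 entries compared were. At least 2-fold higher in retina were 2 entries, or 3.77%, where 3.6% of all entries were, so the share on the retina side was near that of all entries. The other 40 differed by less than 2-fold. The median Rab difference was 0.19 and that of all entries -0.0035. Scaling to an equal total shifted the median of all entries to -0.29 and the Rab median to -0.11, so the Rab median lay above that of all entries by 0.19 with the authors' scaling and by 0.18 with an equal total. The middle 50% of Rab differences ran from -0.20 to 0.57, and that of all entries from -0.32 to 0.44.

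**Figure D2:**
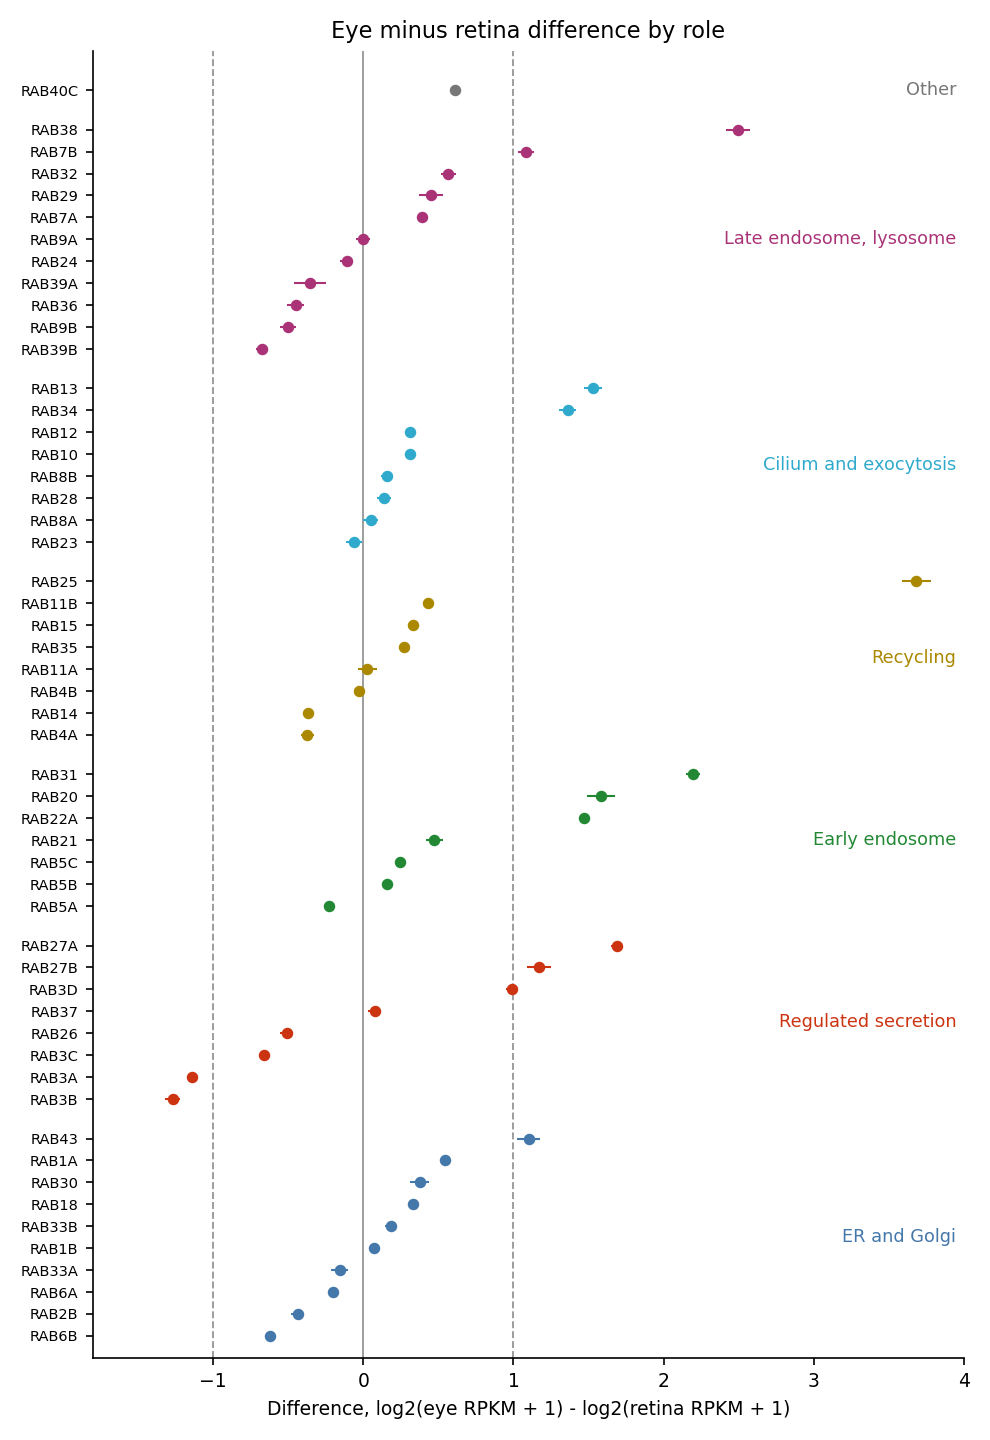
Difference between eye and retina for the 53 Rab entries compared, in log2 units and grouped by role, with bars for the 95% counting interval and dashed lines at a 2-fold difference. Most entries lie within 2-fold; RAB25 at 3.68 lies farthest to the right and RAB3B at -1.27 farthest to the left.

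The Rabs of regulated secretion held both calls on the retina side and were the only role group with calls in both directions. RAB3A, the main Rab of synaptic vesicles, was at 77.6 RPKM in eye against 172 in retina. Its retina level was 2.22-fold that of eye (95% counting interval 2.19 to 2.24). The transcripts behind these values differed in length, with 55912 reads on 2726 bases in eye and 75026 reads on 1224 bases in retina. The read totals were 264219334 and 355988270. The retina length was 0.449 of the eye length, and the part that length has in the RAB3A ratio was not tested. RAB3B, a paralog found in neurons and endocrine cells, was at 4.81 RPKM in eye against 13.0 in retina, 2.71-fold higher in retina (2.60 to 2.82). With transcripts alike in length the RAB3B difference was -0.46 in place of -1.27. RAB3C, another vesicle Rab of neurons, leaned the same way at 5.06 and 8.57 RPKM (difference -0.66). RAB26, a Rab of secretory granules and synaptic vesicles, was at 11.3 and 16.5 RPKM (-0.51), and RAB37 of secretory granules at 9.81 and 9.26 (0.075). The paralog RAB3D, best known from exocrine glands and other non-neuronal secretory cells, went the other way at 30.8 RPKM in eye against 15.0 in retina. Its difference of 0.99 lies just under the 2-fold mark, and it was 0.10 with transcripts alike in length.

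RAB27A and RAB27B, which bring melanosomes and secretory vesicles to the cell cortex, were higher in eye. RAB27A was at 19.7 RPKM in eye against 5.41 in retina, 3.64-fold higher in eye (3.53 to 3.75). RAB27B was at 3.39 RPKM in eye against 0.946 in retina, 3.58-fold higher (3.22 to 3.98). The 8 secretory Rabs thus divided into 4 higher in eye and 4 higher in retina. In each direction 2 were called (25%, where 11.8% of all entries were in eye and 3.6% in retina). Their median was -0.22, which turned to 0.085 with the sum over transcripts. Summed over the group, their level was 163 RPKM in eye against 241 in retina, or 11.9% and 19.7% of the RPKM of all Rab entries. RAB3A made up most of that group in retina.

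With the highest transcripts, the make-up of the RAB3 paralogs differed between the tissues, and that of the RAB27 pair hardly did. The 4 RAB3 entries summed to 118 RPKM in eye against 209 in retina. RAB3A was 65.6% of that sum in eye and 82.5% in retina, while RAB3D was 26.1% and 7.18%. RAB3B and RAB3C each held between 4.06% and 6.23% of the sum in both tissues. For the RAB27 pair the sum was 23.1 RPKM in eye against 6.36 in retina, and RAB27A held 85.3% and 85.1% of it. The sum of the pair therefore differed 3.63-fold at nearly the same ratio of its members. All these shares depend on the transcripts chosen, which differed in length between eye and retina. RAB3A was read from 2726 and 1224 bases, RAB3B from 4001 and 859, RAB3D from 815 and 3200 and RAB27B from 3312 and 1140. With transcripts alike in length RAB3D was at 16.2 and 15.0 RPKM and RAB3B at 4.20 and 6.15. RAB3A and RAB27B had no such pair.

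**Figure D3:**
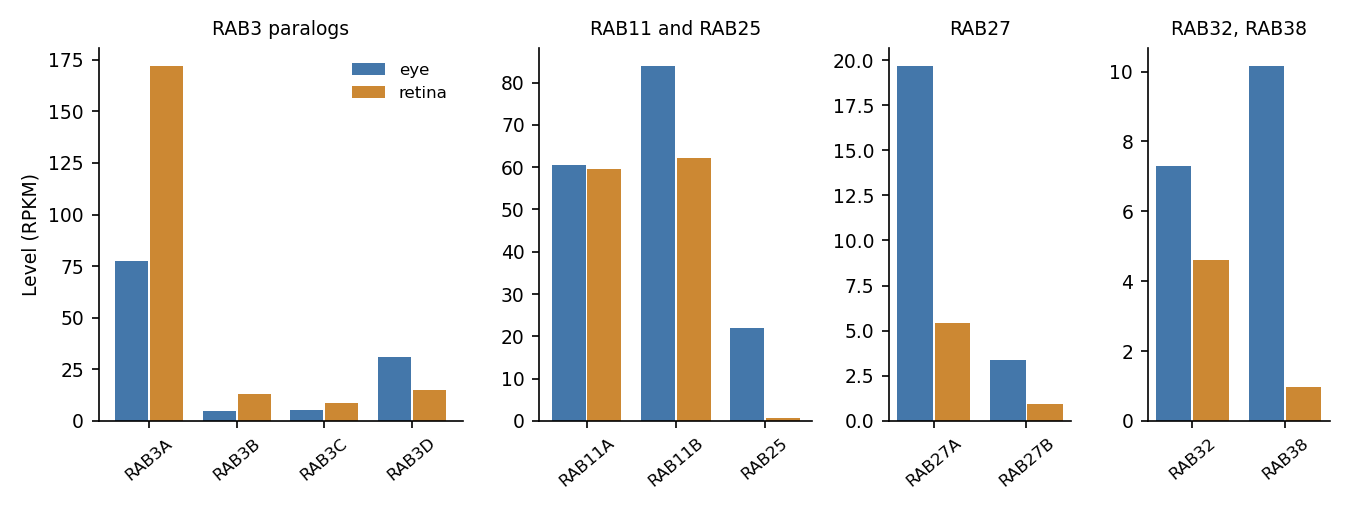
Level (RPKM, axes from 0 and scaled per panel) of the members of 4 paralog groups, eye in blue and retina in orange, 1 value per tissue. RAB3A takes the larger share of the RAB3 sum in retina, RAB25 and RAB38 are under 1 RPKM in retina, and RAB27A and RAB27B keep nearly the same ratio in both tissues. Levels are those of the highest transcripts, which differ in length between the tissues for entries such as RAB3A, RAB3B, RAB3D and RAB27B.

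Among the Rabs of the recycling endosome, RAB25 had the largest difference of any Rab entry. RAB25 is the epithelial member of the RAB11 subfamily and works in apical recycling. It was at 22.1 RPKM in eye against 0.795 in retina, 27.8-fold higher in eye (24.0 to 32.1), and the retina value rests on 184 reads. Its close relatives RAB11A and RAB11B, which serve recycling endosomes in most cells and rhodopsin transport in photoreceptors, were abundant in both tissues. RAB11B was at 84.0 RPKM in eye against 62.1 in retina (0.43), and RAB11A at 60.6 and 59.5 (0.026). RAB25 was thus 13.2% of the sum of these 3 in eye and 0.650% in retina. The RAB11A value in retina comes from a transcript of 107 bases that aligned over 35 residues, and the transcript that spans the protein was at 19.8 RPKM. With transcripts of at least 200 bases the RAB11A difference was 1.56, past the 2-fold mark.

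The other recycling Rabs lay within 2-fold. RAB4B and RAB4A, which act in fast recycling from early endosomes, were at 54.7 and 14.3 RPKM in eye and at 55.9 and 18.9 in retina. RAB14, which links endosomes and the Golgi, was at 29.1 and 38.0 RPKM (-0.37). RAB15, an endosomal Rab of neurons, was at 18.5 and 14.5 (0.33), and RAB35, which acts between plasma membrane and endosome, at 14.5 and 11.8 (0.27). The group's median was 0.15, which turned to -0.17 with an equal total and to -0.22 with the sum over transcripts.

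The early endosome group leaned towards eye, with 6 of its 7 compared entries higher there (85.7%, where 49.7% of all entries were). Of the 7, 3 were called (42.9%, where 11.8% of all entries were). RAB31, which works between the trans-Golgi network and endosomes, was at 11.7 RPKM in eye against 1.78 in retina, 6.58-fold higher in eye (6.28 to 6.89). RAB20, a Rab of endosomes and phagosomes, was at 3.60 and 0.534 RPKM, a ratio of 6.73 (5.78 to 7.85). RAB22A, the closest relative of RAB31, was at 24.8 and 8.30 RPKM, a ratio of 2.99 (2.92 to 3.05). With transcripts alike in length the RAB22A difference was 0.13 in place of 1.47. The 3 RAB5 paralogs, which define the early endosome, lay within 2-fold: RAB5B was at 68.9 and 61.8 RPKM, RAB5C at 59.4 and 50.0 and RAB5A at 17.4 and 20.6. The RAB5C value in retina comes from a transcript of 936 bases that aligned over 89 residues, and the spanning one was at 31.0 RPKM. The RAB5C difference of 0.24 became 0.92 with best-matching transcripts, with mammalian hits and with alignments of 150 residues or more. With the sum over transcripts RAB5A came to -1.12, past 2-fold, and RAB5B to -0.52. RAB21, which acts in integrin traffic, was at 16.5 and 11.6 RPKM (0.47). The median of the group was 0.47, and it was above 0 with each of the 14 other settings tried, at 0.16 to 1.58. RAB17, an epithelial Rab, was under 1 RPKM in both tissues at 0.773 and 0.339 and was not compared.

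The Rabs of cilium and exocytosis held 2 calls, both higher in eye (25% of 8 entries, where 11.8% of all entries were). RAB13, a Rab of tight junctions and their delivery route, was at 15.8 RPKM in eye against 4.82 in retina, 3.28-fold higher in eye (3.13 to 3.44). RAB34, which acts in the assembly of the primary cilium, was at 26.1 and 9.54 RPKM, a ratio of 2.73 (2.62 to 2.85). Its 8 eye transcripts ran from 13.7 to 26.1 RPKM and its 4 retina transcripts from 5.18 to 9.54. Transcripts of the same gene are not replicates of a tissue. With transcripts alike in length the RAB34 difference was 0.86, under the 2-fold mark. RAB8A and RAB8B, which act in ciliary and photoreceptor membrane delivery, were at 15.6 and 4.73 RPKM in eye and at 15.0 and 4.14 in retina. RAB28, whose loss causes cone-rod dystrophy, was at 25.7 and 23.2 RPKM (0.14). The RAB28 value in eye comes from a transcript of 672 bases that aligned over 131 residues, and the spanning one was at 19.5 RPKM. With best-matching transcripts the RAB28 difference was -0.24, and it was negative in 5 of 15 settings. RAB10 and RAB12, which serve exocytic and endosomal routes, both had a difference of 0.31, at 28.8 and 33.0 RPKM in eye and 23.1 and 26.4 in retina. RAB23, a regulator of Hedgehog signalling, was at 3.65 and 3.85. In this group 7 of 8 entries leaned to eye with the highest transcripts, RAB28 among them, and the median was 0.23, which turned to -0.063 with an equal total.

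In the late endosome and lysosome group the 2 calls included RAB38, a Rab of melanosome formation. Both calls were on the eye side (18.2% of 11 entries, where 11.8% of all entries were). RAB38 was at 10.2 RPKM in eye against 0.981 in retina, 10.4-fold higher in eye (9.41 to 11.4). Its paralog RAB32, which shares that function and is also found in other cells, was at 7.31 and 4.61 RPKM (0.57). RAB38 thus made up 58.2% of the pair in eye and 17.5% in retina. The pigment cell markers had an eye to retina ratio of 13.6 for RPE65 and 24.8 for TYRP1, and their part in the RAB38 and RAB27A differences was not tested. RAB7B, which acts between late endosomes and the Golgi, was at 6.24 and 2.42 RPKM, a ratio of 2.58 (2.46 to 2.71).

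The main late endosome Rab, RAB7A, was at 69.1 RPKM in eye against 52.4 in retina (0.39). RAB9A, which returns receptors from late endosomes to the Golgi, was at 17.5 in both (-0.0028), and RAB9B at 1.97 and 3.21. RAB24, linked to autophagy, was at 22.7 and 24.6 RPKM (-0.11). RAB29, a lysosome and Golgi Rab, was at 3.30 and 2.15 (0.45), and RAB36 at 3.93 and 5.74 (-0.45). RAB39B, a neuronal Rab, was at 7.99 RPKM in eye against 13.4 in retina (-0.68), and RAB39A at 0.990 and 1.54 (-0.35). Of the 11 entries 5 were higher in eye and 6 in retina, with a median of -0.0028. RAB39B had a negative difference with each of the 14 other settings tried, at -1.62 to -0.50.

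The Rabs of the endoplasmic reticulum and the Golgi held the largest sum in both tissues, 383 RPKM in eye against 297 in retina. The eye sum includes RAB2A at 61.5 RPKM, which was not listed for retina. The retina sum includes RAB41 at 0.981 RPKM, which was not listed for eye. The 2 sums are therefore not over the same entries. RAB1A and RAB1B, which govern transport from the endoplasmic reticulum to the Golgi, were at 105 and 66.7 RPKM in eye and at 71.8 and 63.6 in retina. RAB6A of the Golgi was at 49.4 and 57.0 RPKM (-0.20). RAB6B, its paralog enriched in neurons, was at 24.6 and 38.5 (-0.62), and its difference stayed negative with each of the 14 other settings tried, at -0.95 to -0.55. RAB6B had 1 transcript in each tissue, so settings that choose or combine transcripts could not change its value. RAB18, a Rab of the endoplasmic reticulum and lipid droplets, was at 28.9 and 22.8 RPKM (0.33). RAB43, a Golgi Rab, was the only call of the group (10% of 10 entries, where 11.8% of all entries were higher in eye). It was at 10.6 and 4.40 RPKM, a ratio of 2.40 (2.26 to 2.56), and its difference was 0.82 with transcripts alike in length. The remaining 4 compared were RAB2B at 8.77 and 12.2 RPKM, RAB30 at 4.01 and 2.86, RAB33A at 12.4 and 14.0, and RAB33B at 10.6 and 9.22. The median of the group was 0.13, which turned to -0.19 with an equal total.

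RAB40C, a Rab with a SOCS box that joins ubiquitin ligases, was outside these groups at 13.8 RPKM in eye against 8.64 in retina (0.61). The 3 entries in 1 table only have no difference. RAB2A, which acts between the endoplasmic reticulum and the Golgi, was listed in the eye table at 61.5 RPKM from a transcript of 3418 bases with 94% similarity over 207 residues. RAB6C was listed in the retina table at 20.4 RPKM, from 1548 bases that aligned over 45 residues at 82% similarity. RAB41 was listed in the retina table at 0.981 RPKM, from 209 bases that aligned over 43 residues at 69%. Neither RAB6C nor RAB41 has a symbol in the RefSeq table, and both names rest on short alignments.

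Similarity of Rab transcripts to their Swiss-Prot proteins was high. The median similarity was 99% in each table, against 89% over all entries, and 20 entries in each table were at 100%. Paralogs within a subfamily are alike in sequence, and the mode of counting is not given in the sources used here. Reads shared between RAB1A and RAB1B, the RAB3, RAB5, RAB6, RAB8 and RAB11 members or other close copies could therefore be split or counted more than once, so values within a subfamily are uncertain.

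The transcript that gave an entry its level often differed in length between the tissues, since each tissue was assembled separately. The lengths were within 1.25-fold of each other for 26 of the 53 entries compared and farther apart for 27. Short alignments stood behind some levels, with 90 residues for RAB7A and 58 for RAB21 in eye, and 64 for RAB1B and 61 for RAB36 in retina. Of the 13 calls, 6 had lengths within 1.25-fold and 7 did not. A comparison of the eye and the retina transcript most alike in length, both aligned over at least 150 residues, was possible for 39 entries. Their median absolute difference was 0.39 with the highest transcripts and 0.30 with transcripts alike in length. The difference became smaller for 15 entries, was equal for 17 and became larger for 7, and 4 changed sign.

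Of the 8 calls that have such a pair, 4 were 2-fold again: RAB38 at 2.50, RAB31 at 2.19, RAB27A at 1.69 and RAB7B at 1.08. Their transcripts were of like length from the start, as with RAB27A at 2908 bases in eye and 2874 in retina. The other 4 were no longer 2-fold. RAB22A had an eye transcript of 2083 bases at 24.8 RPKM and another of 6810 bases at 9.16, and the single retina transcript of 6787 bases was at 8.30, which gives a difference of 0.13 in place of 1.47. RAB3B was at 4.20 RPKM in eye against 6.15 in retina over transcripts of 5074 and 5129 bases, a difference of -0.46 in place of -1.27. RAB34 came to 0.86 and RAB43 to 0.82.

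RAB3D showed the same pattern without being a call. Its eye transcripts of 815 and 833 bases were at 30.8 and 30.3 RPKM, while that of 3180 bases was at 16.2 beside a retina transcript of 3200 bases at 15.0, a difference of 0.10. RAB1A at -0.052 and RAB11B at -0.30 changed sign. RAB3A, RAB13, RAB20, RAB25 and RAB27B had no pair of like length. RAB3A was read from 1 eye transcript of 2726 bases and from a retina transcript of 1224 bases. Its 7 other retina transcripts, of 107 to 111 bases, aligned over 35 to 37 residues. They were at 119 to 134 RPKM and, as short pieces of the same gene, are not further measures of its retina level.

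**Figure D4:**
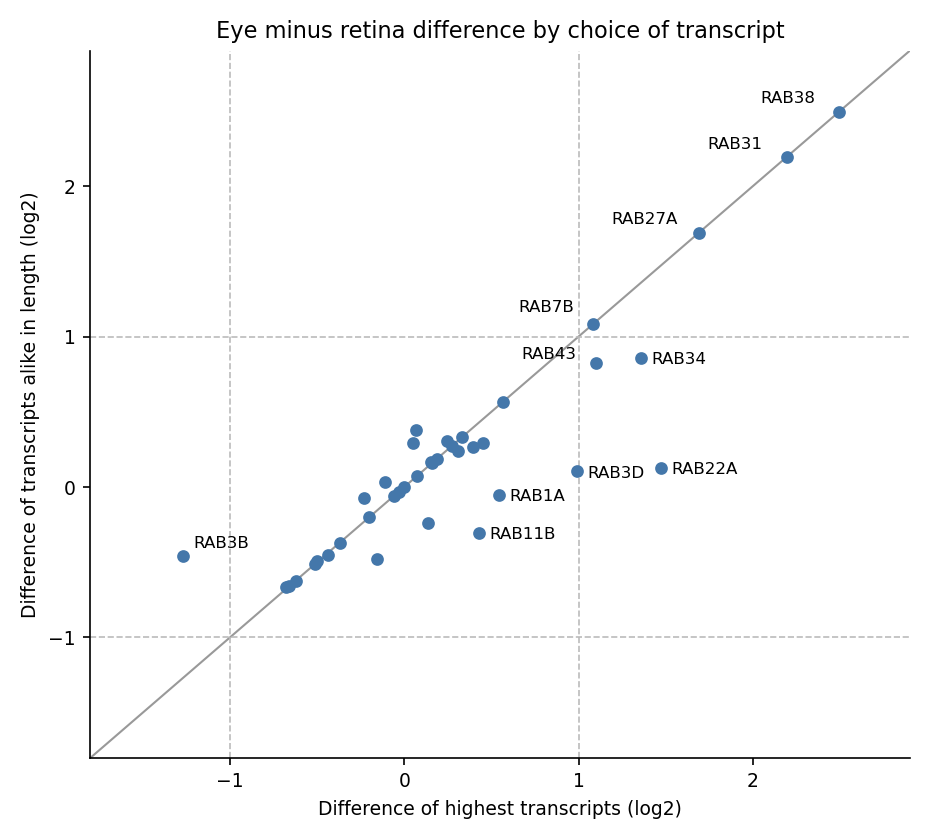
Difference between eye and retina (log2) from the highest transcripts, horizontal axis, and from the transcripts most alike in length, vertical axis, for the 39 Rab entries with such a pair; the solid line marks equal values and the dashed lines a 2-fold difference. RAB38, RAB31, RAB27A and RAB7B lie on the line of equal values past 2-fold, and RAB22A, RAB34, RAB43 and RAB3B are drawn inside the 2-fold lines on the vertical axis.

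Across all the settings that gave a value, RAB25, RAB31, RAB38 and RAB13 passed the 2-fold mark on the eye side each time. RAB31, RAB38 and RAB13 had 1 transcript in each tissue. Settings that choose or combine transcripts could therefore not change their values, and only the filter, pseudocount and scaling could. RAB25 ranged from 2.22 to 4.65 over 14 settings, RAB31 from 1.30 to 2.65 over 15, RAB38 from 1.34 to 3.25 over 15 and RAB13 from 1.08 to 1.69 over 13. RAB3A was at least 2-fold higher in retina in 13 of 14 settings, and at -0.98 with a length-weighted mean. RAB3A had 1 transcript in eye. Settings that changed only which transcript was read took the same retina transcript and left its difference at -1.14. The RAB3A count is therefore not a check on transcript choice, and transcripts alike in length gave no value for it. RAB27A was 2-fold higher in eye in 14 of 15, and at 0.81 with the sum over transcripts. RAB3B was called in 11 of 15 settings, RAB43 in 10 of 15 and RAB27B in 11 of 13.

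The proteins that act on Rabs passed 2-fold in a smaller share than the Rabs, a contrast that was not tested. Of 92 regulators and effectors listed, 91 were found, 88 of them in both tables and 86 at a level that could be compared. Of these 42 were higher in eye and 44 in retina, 8 passed the 2-fold mark on the eye side (9.30%) and 1 on the retina side (1.16%), and the median was -0.029. Both shares lay below those of all entries, 11.8% and 3.6%.

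The factors that prenylate and recycle Rabs were level between the tissues, with none of 8 called and a median of 0.029. GDI2, a GDP dissociation inhibitor, was at 37.8 RPKM in eye against 36.4 in retina. RABAC1, a prenylated Rab acceptor, was at 66.9 and 54.9 RPKM, and RABGGTB, a subunit of the Rab prenyltransferase, at 42.2 and 32.6. The escort protein CHM was at 4.79 and 5.08 RPKM.

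Of the exchange factors 24 were compared, and 2 were called, both higher in eye (8.33%, where 11.8% of all entries were). RAB3IL1 was at 4.03 RPKM in eye against 0.761 in retina (1.51), and RIN3, an exchange factor of the RAB5 subfamily, at 1.81 and 0.300 (1.11). The RIN3 value in retina rests on 24 reads and an alignment of 74 residues. RIN3 was called in 9 of 12 settings, and its lowest difference was 0.36. The 4 most abundant lay within 2-fold and leaned to retina: MADD, which acts on RAB3 and RAB27, at 41.5 and 51.1 RPKM, RAB3IP, which acts on RAB8, at 40.6 and 48.0, RABGEF1, which acts on RAB5, at 37.4 and 47.7, and DENND5A at 28.0 and 35.9. Of 21 activating proteins, TBC1D22A was 2-fold higher in eye at 12.2 and 5.01 RPKM (1.13), and TBC1D24, a protein of synaptic vesicle traffic, was 2-fold higher in retina at 12.2 and 28.8 (-1.17). The TBC1D24 value in retina rests on an alignment of 51 residues, and the gene was called in 10 of 15 settings: it came to -0.56 with best-matching transcripts, -0.57 with a length-weighted mean, -0.77 with alignments of 150 residues or more or transcripts alike in length, and -0.97 with a pseudocount of 5. TBC1D14 had the highest values at 65.8 and 101 RPKM, but its transcripts aligned over 69 residues at 52% similarity in eye and 132 at 75% in retina, so the name is uncertain. TBC1D17 was at 28.0 and 45.8, the latter from 108 residues at 62%, and RAB3GAP1, part of the complex that acts on RAB3 and RAB18, at 25.1 and 24.2.

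Of the effectors 33 were compared, and 5 were called, all of them higher in eye (15.2%, where 11.8% of all entries were). On the retina side 0% of effectors were called, where 3.6% of all entries were. The synaptotagmin-like proteins SYTL1 and SYTL3, effectors of RAB27, were at 13.2 and 6.33 RPKM in eye and at 1.38 and 1.43 in retina (2.58 and 1.59). EXPH5, another RAB27 effector, was at 2.32 and 0.320 RPKM (1.33). The retina values of SYTL1 and EXPH5 come from alignments of 39 and 76 residues; SYTL1 was past 2-fold in each of the 14 settings that gave a value and EXPH5 in 11 of 13. RAB11FIP1, an effector of RAB11 and RAB25, was at 6.55 and 2.16 RPKM (1.26), and RILPL2, a partner of ciliary Rabs, at 8.26 and 2.94 (1.23). Effectors listed in the eye table only were MLPH, which links RAB27A to myosin on melanosomes, at 4.17 RPKM, MICALL2, a RAB13 effector, at 4.10 and SYTL4 at 0.643.

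The most abundant effectors leaned to retina, each by less than 2-fold. RIMS1, the RAB3 effector of the presynaptic active zone, was at 33.9 RPKM in eye against 65.6 in retina (-0.93), and RPH3A, another RAB3 effector, at 18.3 and 22.7. GOLGA2, a Golgi partner of RAB1, was at 33.9 and 57.7 (-0.75), OSBPL1A, a RAB7 effector, at 38.9 and 51.2 (-0.39), and RILPL1 at 19.4 and 30.2 (-0.61). MYRIP, which links RAB27A to myosin in pigment epithelium, was at 8.05 and 6.35 RPKM (0.30). The whole class had a median of -0.19.

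**Figure D5:**
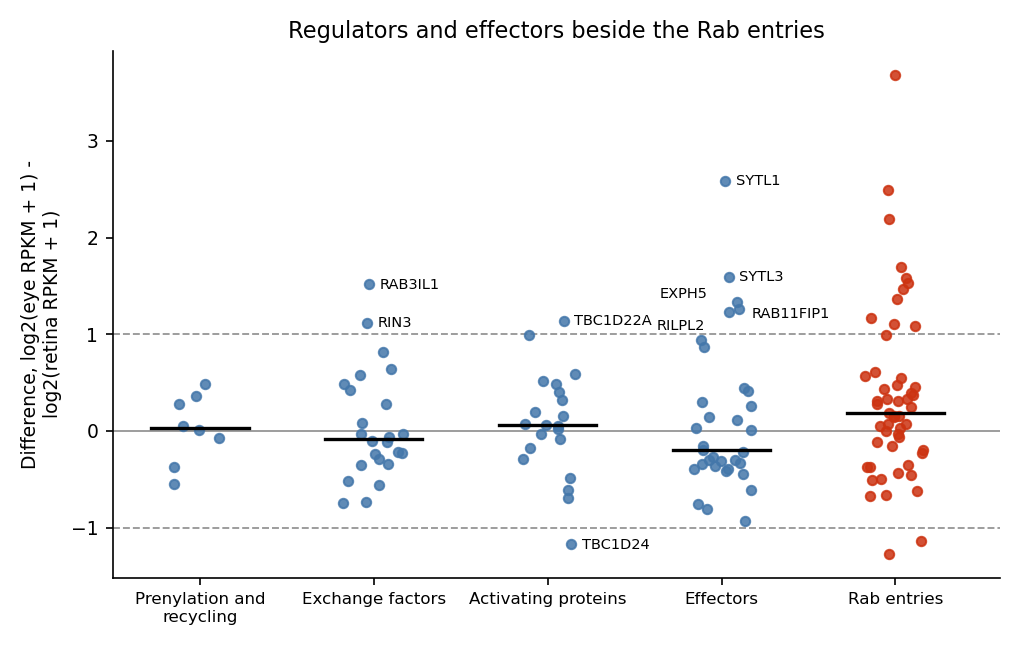
Difference between eye and retina (log2) for the regulators and effectors compared, by class, beside the 53 Rab entries, with 1 point per gene, black bars at the medians and dashed lines at 2-fold; points are spread sideways for legibility. SYTL1 at 2.58 is the highest regulator or effector and TBC1D24 at -1.17 the lowest, and the Rab entries reach 3.68.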

How the data were processed

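RNA of eye (2 libraries) and retina (3 libraries) was sequenced, and samples were grouped by the tissue in their titles. For each tissue the authors deposited the value and length of every assembled transcript, and separately its best match in Swiss-Prot. The deposited values were read as RPKM: value times length was a whole multiple of 1 constant, within 0.01 reads, for 100% of transcripts, which gives the reads behind each value. The deposited hit tables also give the similarity in percent and the alignment score, per the file headers. Bowtie is named without version in the submitters' processing notes; the assembler, the counting and the way libraries were combined are among the steps not given in the sources used here.

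All entries were processed together with Python 3.11.15 and pandas 2.3.3, and plots were drawn with matplotlib 3.10.9. Counting intervals used the Poisson error of the reads. The functions were tested on simulated data. The Rab entries, role groups and lists were chosen with earlier results of these data known. Named were, in each role group, the 4 most abundant entries, every 2-fold difference, every entry in 1 table only and the paralog pairs; the other Rab entries are given for completeness. Of regulators and effectors, the 4 most abundant and the 2-fold different ones of each class were named, and CHM, RPH3A and MYRIP after their values were seen. A gene that this rule selects is not reported here. Another 12 settings changed the filter, pseudocount, level per entry, scaling or hits used, and 2 more, on alignment and length, were chosen after seeing the data. The RefSeq table (mIctTri1.hap1) served for symbols only. RAB19, RAB40A, RAB40B, RAB42 and RAB44 were looked for under the rule and had no entry, and DENND6A was not found under the name used.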

Additional observations from a re-analysis of the deposited data

How the results depend on the processing

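The count of Rab entries at least 2-fold higher in eye was 11; it was 7 with a pseudocount of 5, 17 with the sum over transcripts and 4 of 39 with transcripts most alike in length, and 8 to 12 with the other 11 settings. The count higher in retina was 2; it was 1 with a pseudocount of 5, 7 with the sum over transcripts, 0 with a length-weighted mean, 0 with transcripts most alike in length and 3 with best-matching transcripts. The median Rab difference of 0.19 became 0.24 with transcripts of 200 bases or more, with best-matching transcripts and with E-values of 1e-20 or lower, 0.27 with the sum over transcripts and with alignments of 150 residues or more, -0.11 with an equal total and 0.10 with transcripts most alike in length. With the sum, 16.8% of all entries were 2-fold higher in eye and 19.3% in retina, and with an equal total, 8.52% and 7.87%. With transcripts most alike in length, 10.3% of Rab entries were 2-fold higher in eye, where 7.79% of all entries were. That gap is smaller than the 20.8% against 11.8% of the main setting. On the retina side the shares with transcripts alike in length were 0% of Rab entries and 1.61% of all entries. The cause of these changes was not tested, except that fewer entries could be compared with transcripts alike in length. No paired analysis was possible because each tissue has 1 value per transcript, and for the same reason no library could be left out in turn. Depth limited little, with counting half-widths of at most 0.10; the error between animals and libraries is unknown.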

Other observations

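Several Rab-like proteins fall outside the name rule and were not counted among the Rab entries. Those in both tables differed by less than 2-fold: Rab-like protein 1 (RBEL1) was at 50.3 RPKM in eye against 56.2 in retina, RBL2A, a Rab-like protein of cilia, at 20.7 and 29.1, RABL5, a subunit of the intraflagellar transport machinery, at 11.5 and 14.2, RABL3 at 8.51 and 9.63, and RSG1 of ciliogenesis at 5.48 and 3.71. RBL2B at 13.4 RPKM and RB43L at 3.43 were listed in the retina table only, and a putative RAB42 at 0.304 in the eye table only.

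Where a Rab entry had transcripts over 1.25-fold apart in length in 1 table, each aligned over at least 150 residues, the shortest was higher than the longest in 8 of 14 entries in eye and 5 of 9 in retina. Over all entries this held for 42.7% of 3855 in eye and 40.3% of 4708 in retina. RAB22A and RAB3D, described above, are examples in eye, and RAB3B, with 859 bases at 13.0 RPKM and 5129 bases at 6.15, is one in retina.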
